A study of Drosophila melanogaster with 4 samples.

Results

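The H3K9me1 clusters described here are those on the fourth chromosome (named 4 in the files) and on 5 sets of heterochromatic scaffolds, XHet, 2LHet, 3LHet, 3RHet and YHet. H3K9me1 is histone H3 monomethylated at lysine 9, and a cluster is a region that the authors called as significantly enriched. Members were taken by sequence name alone, not by any measured value. They came to 640 of the 13114 clusters of the combined list (4.88%), 257 of the 5480 clusters of replicate 1 (4.69%) and 340 of the 6062 clusters of replicate 2 (5.61%).

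The study mapped the mark by chromatin immunoprecipitation and sequencing (ChIP-seq) in whole Drosophila melanogaster embryos, 14 to 16 h old, of the wild-type Oregon-R strain. Its 4 samples are 2 immunoprecipitations with a new antibody lot against H3K9me1 and 2 inputs, with the numbers 1 and 2 in each group. All embryos were fixed in 1.8% formaldehyde, and the labels give no sex and no separate cell types, so each value averages over all cells of the embryos. The labels do not say whether the embryos of the replicates were collected separately, so their spread may be technical.

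Methylation of H3K9 is the hallmark of heterochromatin, where heterochromatin protein 1 (HP1a) binds the di- and trimethylated forms. The monomethyl form is both a step towards those forms and a mark with a distribution of its own. The fourth chromosome is a small autosome whose gene-bearing arm is packed with repeats and bound by HP1a along much of its length, and its H3K9 methylation depends largely on the methyltransferase Eggless (SETDB1). The protein POF, which is specific to this chromosome, binds its genes. Pericentric heterochromatin, from which the Het scaffolds other than YHet were assembled, relies mainly on another methyltransferase, Su(var)3-9. The genes of the fourth chromosome are transcribed in spite of their heterochromatic surroundings, while pericentric heterochromatin is poor in genes.

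In release 5 of the FlyBase genome, which the file headers name, the fourth chromosome is 1351857 bp long. The scaffold sets measure 2555491 bp (3LHet), 2517507 bp (3RHet), 368872 bp (2LHet), 347038 bp (YHet) and 204112 bp (XHet), or 5.99 Mb together. All coordinates below are on that release, counted from 1. No read counts were analysed, so library depth is unknown, and bases between clusters may still carry the mark below the authors' threshold. How much of each sequence consists of assembly gaps, or of repeats to which reads cannot be assigned, was not measured here.

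The first comparison set the fourth chromosome against the Het scaffolds in coverage, the share of bases inside clusters. The fourth chromosome was the more covered. Clusters took up 10.4% of its bases in the first replicate and 16.0% in the second, a mean of 13.2% ± 3.9 (SD, n = 2). The 5 Het sets, pooled, were covered at 6.89% and 10.9%, a mean of 8.88% ± 2.82 (SD, n = 2). The fourth chromosome was the higher in both replicates, and the ratio within each sample moved little, from 1.51 in replicate 1 to 1.47 in replicate 2 (1.49 ± 0.03, SD, n = 2). The mean difference, 4.31 percentage points ± 1.09, exceeded its spread over the replicates. With 2 samples the exact sign-flip permutation test (two-sided) cannot go below p = 0.5, which was its value here and in each contrast below that had 1 direction in both replicates. Coverage of the whole genome examined was 9.51% ± 1.28 (SD, n = 2).

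Single scaffold sets ran from sparse to dense. 2LHet was the least covered, at 2.34% in replicate 1 and 3.94% in replicate 2, and YHet followed at 3.37% and 7.37%. 3LHet lay at 7.54% and 10.6%, and 3RHet at 6.88% and 12.3%. XHet, with 13.1% and 14.7%, was the 1 set that the fourth chromosome did not exceed in both replicates, since XHet was higher in replicate 1 and lower in replicate 2. Few clusters stand behind 3 of the sets, with 5 in each replicate on 2LHet, 6 and 12 on YHet and 12 and 11 on XHet. The 86 and 109 clusters of 3LHet and the 81 and 106 of 3RHet therefore carry most of the pooled value.

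Replicate 2 covered more of these sequences than replicate 1. Its covered bases were 1.53-fold those of replicate 1 on the fourth chromosome and 1.58-fold on the pooled Het scaffolds, against 1.17-fold on the 5 long arms and 1.61-fold on the 2 remaining sequences. It was 1.79-fold on 3RHet and 2.19-fold on YHet, while XHet, at 1.12-fold, lay below the long arms. The level of coverage thus differs between the replicates, while the ratio of the fourth chromosome to the Het scaffolds, given above, was alike in both.

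**Figure D1:**
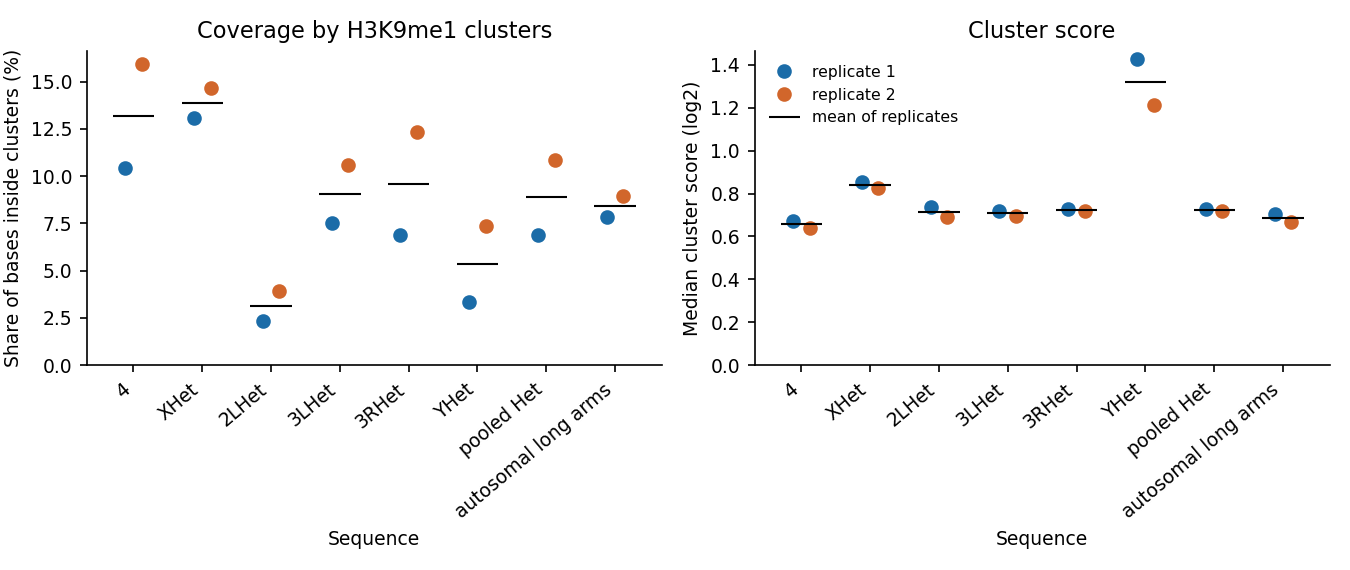
Left, the share of bases inside H3K9me1 clusters (%) on each sequence, on the pooled Het scaffolds and on the autosomal long arms; right, the median cluster score (log2). Points are single replicates and bars their mean; the fourth chromosome reached 13.2% coverage against 8.88% of the pooled Het scaffolds, and had the lower median score in both replicates.

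The number of clusters per length gave the same order as coverage. The fourth chromosome held 67 clusters in replicate 1 and 97 in replicate 2, or 49.6 and 71.8 per Mb. The Het scaffolds held 190 and 243, or 31.7 and 40.5 per Mb. The ratio was 1.67 ± 0.15 (SD, n = 2). The width of clusters did not set these sequences apart. The median width was 1913 bp and 1941 bp on the fourth chromosome against 1826 bp and 2096 bp on the Het scaffolds, so the sign of the difference turned between replicates (mean difference, the fourth chromosome minus Het, -33.8 bp with an SD of 171 bp; exact sign-flip permutation p = 1). The upper quartile of width was lower on the fourth chromosome in both replicates, at 2247 bp and 2457 bp against 2352 bp and 3147 bp. The longest clusters of the fourth chromosome were 6601 bp and 7979 bp. Those of the Het sets, drawn from more clusters, were 11879 bp and 12135 bp, both on 3LHet. In replicate 1 the other 4 sets had shorter maxima than the fourth chromosome, from 2355 bp to 5918 bp, and in replicate 2 only 3RHet (10796 bp) joined 3LHet in exceeding it.

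Scores pointed the other way from coverage. The deposited score of a cluster behaves as a log2 ratio, as set out in the account of processing, so that a fold is 2 raised to the score. Clusters on the fourth chromosome scored a median of 0.67 in replicate 1 and 0.64 in replicate 2, a 1.59-fold and a 1.56-fold ratio. Those on the Het scaffolds scored 0.73 and 0.72, a 1.66-fold and a 1.65-fold ratio. The difference of medians was -0.05 and -0.08, a mean of -0.07 ± 0.02 (SD, n = 2), and the fourth chromosome had the lower median against each of the 5 sets in both replicates. The gap widened up the range. It was -0.02 ± 0.00 at percentile 5 of the scores and -0.26 ± 0.05 at percentile 95 (SD, n = 2). The sets were unlike at percentile 95, where the fourth chromosome stood at 0.81 and 0.84 in replicates 1 and 2. YHet (1.80 and 1.62) and XHet (1.15 and 1.34) were furthest above it. 3LHet (0.91 and 1.00) and 3RHet (0.96 and 0.96) were nearer, and 2LHet (0.74 and 0.82) lay below it.

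Against the whole of each list, where 50.0% of clusters lie at or above the median score by construction, 14 of 67 clusters of the fourth chromosome (20.9%) did so in replicate 1 and 19 of 97 (19.6%) in replicate 2. On the Het scaffolds 87 of 190 (45.8%) and 133 of 243 (54.7%) did, which is near that background. In the combined list (background again 50.0%) the shares were 49 of 157 (31.2%) and 320 of 483 (66.3%). The fourth chromosome was thus low against the genome in all 3 lists, and the Het scaffolds were near it in the replicates and above it in the combined list. On the autosomal long arms the shares were lower than over the genome, at 38.3% in replicate 1, 38.2% in replicate 2 and 38.5% in the combined list. Against these arms the fourth chromosome was again lower, by less than against the genome, and the Het scaffolds were higher in all 3 lists.

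The order of coverage consequently depended on the score from which clusters were counted. At or above percentile 25 of the scores of each list, the fourth chromosome was covered at 8.52% ± 2.79 and the Het scaffolds at 7.37% ± 2.74, a ratio of 1.17 ± 0.06 (SD, n = 2). At or above the median the order turned, with 3.59% ± 1.03 against 5.42% ± 2.42 and a ratio of 0.69 ± 0.12. At or above percentile 75 the ratio was 0.36 ± 0.01, and 3 and 6 clusters of the fourth chromosome were left in replicates 1 and 2 against 35 and 75 of the Het sets. At percentile 90 it was 0.16 ± 0.12, with 2 and 1 clusters left on the fourth chromosome against 20 and 33. Each turn held in both replicates and in the combined list, where the ratio went from 1.38 over all clusters to 0.85 at the median and 0.15 at percentile 90.

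**Figure D2:**
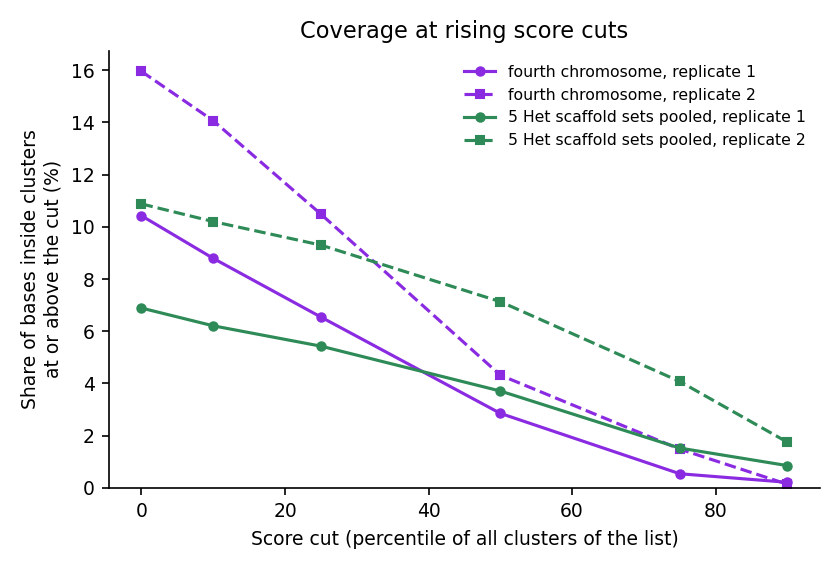
Share of bases (%) inside clusters at or above a score cut, plotted against the cut as a percentile of all clusters of the same list, for the fourth chromosome and the pooled Het scaffolds in each replicate. The curves cross between percentiles 25 and 50: the ratio of the fourth chromosome to the Het scaffolds fell from 1.49 over all clusters to 0.36 at percentile 75.

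Among the scaffold sets YHet stood highest in score. Its medians were 1.43 in replicate 1 and 1.21 in replicate 2, a 2.69-fold and a 2.32-fold ratio, and every one of its 6 and 12 clusters lay at or above the median of its list. XHet came next at 0.85 and 0.82. 2LHet (0.74 and 0.69), 3LHet (0.72 and 0.70) and 3RHet (0.73 and 0.72) lay close together. Input values were not analysed for any of these sequences, so no separately measured background stands beside the scores.

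The highest-scoring replicate clusters of the fourth chromosome and of YHet were not shared. Over all clusters 66.5% of those of replicate 1 and 57.6% of those of replicate 2 touched the other replicate. On the fourth chromosome the highest in replicate 1 lay at 4:1262111-1263595 (1485 bp, score 1.32, 2.49-fold), near the distal end, and touched no cluster of replicate 2. The highest in replicate 2 lay at 4:38307-40144 (1838 bp, score 1.38, 2.61-fold), near the proximal end, and touched none of replicate 1. The second of each replicate was the same place, 4:24084-25460 with a score of 0.99 in replicate 1 and 4:24158-26264 with 0.88 in replicate 2. On YHet the highest were 1.85 at YHet:23340-24782 in replicate 1 and 1.82 at YHet:51220-55440 in replicate 2, and neither touched the other replicate. The highest clusters of 3LHet were unshared as well, whereas those of 2LHet in both replicates, of 3RHet in replicate 1 and of XHet in replicate 2 touched the other replicate.

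The second comparison concerned spacing. Neighbouring clusters of the fourth chromosome were separated by a median gap of 9.41 kb in replicate 1 and 4.53 kb in replicate 2. On the Het scaffolds the median gaps were 10.6 kb and 6.37 kb. The fourth chromosome was the more closely spaced in both replicates, with a mean difference, the fourth chromosome minus Het, of -1522 bp ± 446 (SD, n = 2). This order turned when clusters were filtered. With clusters at or above the median score of their list, the median gaps were 77.3 kb and 36.3 kb on the fourth chromosome against 27.1 kb and 14.7 kb on the Het scaffolds. With clusters of at least the median width they were 17.3 kb and 16.4 kb against 15.3 kb and 14.1 kb. Without a filter, median gaps differed between the replicates by more than the mean difference between the sequences, on the fourth chromosome and on the Het scaffolds. With the width filter the replicates differed by less than the sequences did. In the combined list the medians were 1.77 kb and 3.43 kb. 3RHet was an exception, with 8.48 kb and 4.54 kb in the replicates, close to the fourth chromosome. Gaps under 1000 bp, which mark runs of clusters, made up 13.6% and 20.8% of the gaps on the fourth chromosome and 18.9% and 22.3% on the Het scaffolds, against 12.9% and 14.1% over the genome. In the combined list the order was the opposite, with 36.5% on the fourth chromosome, 27.8% on the Het scaffolds and 24.3% over the genome.

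Among the fourth chromosome and the Het scaffolds, the longest gap between clusters in each replicate lay on 3RHet or 3LHet, which are longer sequences than the fourth chromosome. On the fourth chromosome the longest gap was 134.8 kb in replicate 1 (4:360396-495242) and 85.3 kb in replicate 2 (4:448418-533697), and these overlap. On 3RHet it was 355.4 kb in replicate 1 (3RHet:1229354-1584725) and 180.1 kb in replicate 2 (3RHet:1366981-1547042), the second lying inside the first. On 3LHet the longest gaps were 197.1 kb (3LHet:411043-608150) and 272.7 kb (3LHet:418227-690942), which again overlap. Those of XHet, 34.0 kb and 36.6 kb, were shorter than on the fourth chromosome in both replicates. Those of 2LHet (127.5 kb and 234.6 kb) and YHet (109.3 kb and 98.8 kb) were shorter in replicate 1 and longer in replicate 2. Gaps were counted between clusters only, so empty ends are left out. After the last cluster of YHet 166.0 kb (replicate 1) and 119.4 kb (replicate 2) were empty, longer than the longest gap of the fourth chromosome in each replicate. The longest gap of the combined list was 43.0 kb on the fourth chromosome, 90.1 kb on 3LHet and 83.3 kb on 3RHet.

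The third comparison followed position. Base 1 of the fourth chromosome is its proximal end, towards the centromere. Clusters began 24.1 kb (replicate 1) and 24.2 kb (replicate 2) from that end and stopped 29.2 kb and 29.0 kb short of the distal end, so they spanned nearly the whole sequence in both replicates. Coverage did not follow a gradient from end to end. The proximal 50% was covered at 11.3% and 17.02% and the distal 50% at 9.53% and 14.9%, a difference of 1.97 percentage points ± 0.23 (SD, n = 2). Between the outermost portions, 1/3 of the length each, the sign turned between replicates, at -2.68 points in replicate 1 and 1.61 points in replicate 2 (mean -0.53 ± 3.03; exact sign-flip permutation p = 1).

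Along the fourth chromosome a dense middle lay beside a sparse stretch. Cut into 10 segments of equal length, the segment from 540743 to 675928 had 26.4% of its bases in clusters in replicate 1 and 28.5% in replicate 2 (27.5% ± 1.5, SD, n = 2), with 16 clusters in each. The segment just proximal to it, from 405558 to 540742, was covered at 2.71% and 5.31% (4.01% ± 1.84), with 2 and 3 clusters. These were the highest and the lowest of the 10 segments in both replicates and in the combined list (49.3% and 15.3%). The second highest in the mean was from 135186 to 270371, at 14.4% and 19.2%. The most distal segment was the second lowest in the mean, at 5.80% and 9.26%. The score did not follow coverage: median scores in the dense segment were 0.66 and 0.62, no higher than the medians of the whole chromosome, though in the combined list it was 0.52 against 0.47.

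In 13 windows of 100 kb the fourth chromosome ranged from 3.59% (400001 to 500000) to 27.2% (600001 to 700000), with a median of 13.3% for the mean of the replicates. Only 1 window was empty in replicate 1 (800001 to 900000) and none in replicate 2. The windows rose and fell together in the replicates (Pearson's r 0.90, Spearman's rho 0.86 over 13 windows, which share the libraries and the assembly). 3LHet and 3RHet were more uneven. The coefficient of variation over windows was 52.2% on the fourth chromosome, 81.1% on 3LHet and 90.8% on 3RHet (25 windows each), and window coverage of the replicates went together there as well (r 0.87 on each). The other sets hold few windows, with a coefficient of 55.8% on 2LHet (3 windows), 78.2% on XHet (2) and 104.8% on YHet (3).

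3RHet and 3LHet were both denser in their later bases. The 50% of 3RHet with the higher coordinates had a coverage of 10.1% in replicate 1 and 16.3% in replicate 2, and the other 50% at 3.63% and 8.38%, a difference, earlier minus later, of -7.21 percentage points ± 1.00 (SD, n = 2). Coverage reached 16.8% and 30.1% in the last of 10 equal segments of 3RHet, from 2265757 to 2517507, and 0% and 1.26% in the segment from 1258754 to 1510504. In the mean of the replicates the window of 100 kb with the highest coverage of all those on the 6 sequences was 3RHet from 2100001 to 2200000, at 25.3% and 39.3% (32.3% ± 9.9, SD, n = 2), although in replicate 1 the densest window of the fourth chromosome was level with it at 25.3%. On 3LHet the later 50% was covered at 10.5% and 12.3% and the earlier 50% at 4.60% and 8.93% (earlier minus later, -4.63 points ± 1.78, SD, n = 2). Its first 3 of 10 equal segments lay between 1.93% and 5.22% in either replicate. XHet and YHet ran the other way, with 21.5% ± 3.7 and 8.20% ± 5.27 in the earlier 50% against 6.21% ± 1.49 and 2.53% ± 0.38 in the later 50% (SD, n = 2). In the last 1/3 of YHet no cluster was called in either replicate. The scaffold sets are joined pieces, so their coordinates were not read as distances from the centromere.

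**Figure D3:**
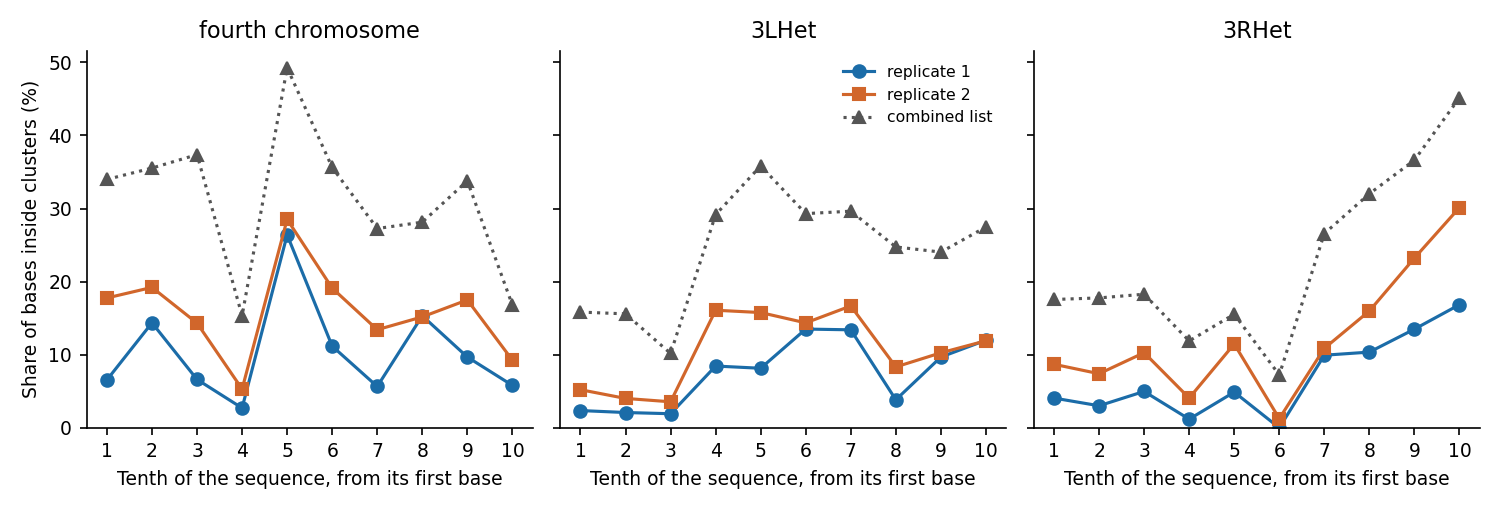
Share of bases inside clusters (%) in 10 equal segments of the fourth chromosome, 3LHet and 3RHet, counted from base 1, for each replicate and the combined list. On the fourth chromosome segment 5 (27.5% in the mean of the replicates) stands beside the lowest (4.01%), and on 3RHet the last segment reaches 16.8% and 30.1%.

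The last comparison asked how far the replicates support the members. Of the 157 combined clusters on the fourth chromosome, 43 (27.4%, Wilson 95% interval 21.0 to 34.8) were touched by both replicates by at least 1 bp, against a background of 23.8% over all combined clusters. On the Het scaffolds 107 of 483 were (22.2%, interval 18.7 to 26.1). Both shares lie near the background, and their intervals overlap. Among those scoring at least the median of the combined list they lay apart, with 30 of 49 on the fourth chromosome (61.2%, interval 47.2 to 73.6) and 95 of 320 on the Het scaffolds (29.7%, interval 24.9 to 34.9), against 41.7% over the list. Touched by neither replicate were 64 clusters of the fourth chromosome (40.8%, interval 33.4 to 48.6) and 241 of the Het scaffolds (49.9%, interval 45.5 to 54.3), against a background of 47.2%. Among clusters at or above the median score these shares were 20.4% and 46.2%, against 34.0%. Each replicate covered 50% or more of the cluster for 27 (17.2%, interval 12.1 to 23.9) on the fourth chromosome and for 50 (10.4%, interval 7.94 to 13.4) on the Het scaffolds, against 16.1%. Clusters of 1 list share their libraries, so these intervals cover counting error only and are too narrow.

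Clusters touched by 1 replicate alone were mostly those of replicate 2, at 37 of 50 on the fourth chromosome (74.0%) and 96 of 135 on the Het scaffolds (71.1%), against a background of 58.7%. Seen from the replicates, 52 of the 67 clusters of replicate 1 on the fourth chromosome (77.6%, background 66.5%) touched a cluster of replicate 2. Of the 97 clusters of replicate 2, 53 (54.6%, background 57.6%) touched one of replicate 1. On the Het scaffolds these were 139 of 190 (73.2%) and 127 of 243 (52.3%). The mean over both directions was 66.1% ± 16.2 on the fourth chromosome and 62.7% ± 14.8 on the Het scaffolds (SD, n = 2), a difference within the spread. The Jaccard index (bases covered in both replicates over bases covered in either) was 0.364 and 0.350, against 0.386 over the genome. With clusters at or above the median score of their list it was 0.119 on the fourth chromosome, 0.245 on the Het scaffolds and 0.322 over the genome, so the order of the first 2 turned. That cut left 14 and 19 clusters on the fourth chromosome in replicates 1 and 2, against 87 and 133 on the Het scaffolds. Shared bases count there only where the clusters of both replicates pass the cut. Over all clusters the index was lowest on YHet at 0.178 and highest on XHet at 0.398.

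**Figure D4:**
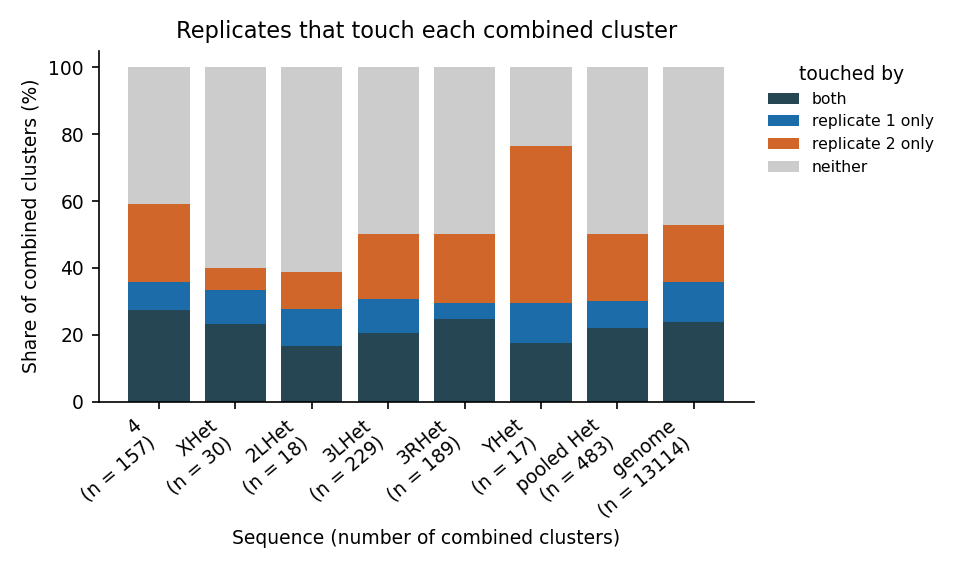
Share of the combined clusters (%) on each sequence that was touched by at least 1 bp of clusters of both replicates, of 1 replicate only, or of neither. Both replicates touched 27.4% on the fourth chromosome and 22.2% on the pooled Het scaffolds, near the 23.8% of the genome.

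Support, a touch of at least 1 bp, went with width on both. That criterion favours wide clusters, which offer more bases to touch. On the fourth chromosome combined clusters touched by both replicates had a median width of 4045 bp and a median score of 0.56, and those touched by neither 1337 bp and 0.45. On the Het scaffolds the widths were 5171 bp and 1397 bp and the scores 0.60 and 0.54. The narrowest cluster of either replicate was 1301 bp wide, and 31 of the 64 unsupported clusters on the fourth chromosome and 103 of the 241 on the Het scaffolds were narrower than that (48.4% and 42.7%, against 45.8% of all unsupported clusters). Among one-to-one pairs of replicate clusters the scores went together, with Spearman's rho 0.46 and Pearson's r 0.47 over 39 pairs on the fourth chromosome and 0.37 and 0.63 over 96 pairs on the Het scaffolds.

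Among the members, high scores in the combined list lay mostly on the scaffolds and mostly in clusters that neither replicate touched, except on XHet and YHet. A score of 1 or more was reached by 1 of 157 combined clusters on the fourth chromosome (0.637%) and by 34 of 483 on the Het scaffolds (7.04%), against a background of 2.49%. Of these 34, 26 were touched by neither replicate and 2 by both, and the 2 lay on YHet. The 13 such clusters on 3LHet and the 11 on 3RHet were untouched without exception, whereas 1 of the 3 on XHet and 1 of the 7 on YHet were. Over all combined clusters of any score 47.2% were untouched. The share untouched at a score of 1 or more was not computed over the whole list. These counts therefore do not show whether lack of support at high scores is particular to these sequences. The median width of the 7 on YHet was 2793 bp. The 5 highest on the Het scaffolds were 3RHet:1397042-1398045 (1004 bp, score 2.67), 3LHet:575980-577439 (1460 bp, 2.29), XHet:130699-131699 and 3RHet:288595-289595 (1001 bp and 2.19 for each) and 3LHet:2160985-2162473 (1489 bp, 2.06). All 5 were covered at 0% by both replicates. How many reads stand behind these scores is unknown, since no read counts were analysed. The pair at 2.19, on different scaffold sets, had scores equal to 9 decimals, and this score occurred 3 times in the list.

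**Figure D5:**
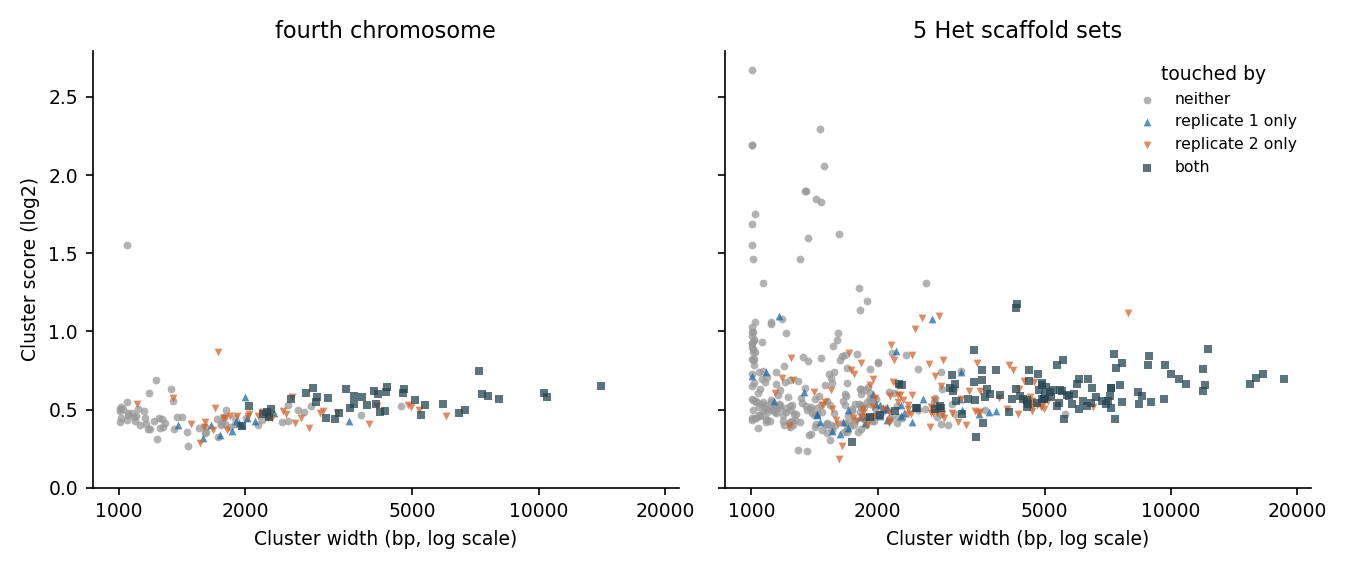
Score (log2) against width (bp, log scale) of each combined cluster on the fourth chromosome and on the 5 Het scaffold sets, marked by the replicates that touch it. The clusters above a score of 1.5 (1 on the fourth chromosome, 14 on the Het sets) were all touched by neither replicate, and wide clusters were mostly touched by both. The share untouched above 1.5 was not computed over the whole list.

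On the fourth chromosome the highest score, 1.56, belonged to 4:1315210-1316252 (1043 bp), again untouched by both replicates and 35.6 kb from the distal end. The second, 4:38313-40033 (1721 bp, 0.87), was covered in full by replicate 2 and not at all by replicate 1. The third, 4:623153-630352, was the highest-scoring cluster of the chromosome that each replicate covered over at least 50%. It was 7200 bp wide with a score of 0.75 and was covered at 84.1% and 91.2%, and its best replicate clusters scored 0.91 and 0.87. Next came 4:1307490-1308716 (1227 bp, 0.69), which was untouched. The fifth, 4:767303-781399 (14097 bp, 0.65), was also the longest of the chromosome, covered at 48.7% and 85.2%.

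The other long clusters of the fourth chromosome were 4:23873-34359 (10487 bp, score 0.58), 4:602260-612541 (10282 bp, 0.61), 4:544665-552718 (8054 bp, 0.57) and 4:187971-195552 (7582 bp, 0.59). 4:602260-612541 and 4:544665-552718, like 4:623153-630352, lie in the dense segment. 4:602260-612541 was covered at 85.1% and 81.7% by 3 clusters of each replicate, and 4:23873-34359, the most proximal, at 25.5% and 56.3%. Combined clusters of 10 kb or more numbered 3 of 157 on the fourth chromosome (1.91%) and 11 of 483 on the Het scaffolds (2.28%), against a background of 1.24%.

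On the scaffolds the longest was 3LHet:1640828-1659461 (18634 bp, score 0.69), covered at 76.2% and 82.1% by 4 clusters of each replicate. It was followed by 3RHet:2150567-2167160 (16594 bp, 0.73), 3RHet:583807-599722 (15916 bp, 0.70) and 3RHet:1674417-1689885 (15469 bp, 0.66), with mean cover of 69.1% ± 19.2, 54.0% ± 22.7 and 75.5% ± 13.7 (SD, n = 2). The fifth, 3LHet:2533298-2545538 (12241 bp, score 0.89), was covered almost whole, as 1 cluster of each replicate spanned 96.3% and 99.0% of it, with scores of 0.94 and 0.86. It was also the highest-scoring well-covered cluster of 3LHet. Those of the other sets were 3RHet:192601-200265 (7665 bp, score 0.80), XHet:22664-31472 (8809 bp, 0.78), 2LHet:35614-38667 (3054 bp, 0.66) and YHet:62249-66520 (4272 bp, 1.15). On YHet this was the 1 cluster of 17 that both replicates covered to that extent, with replicate scores of 1.65 and 1.32.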

How the data were processed

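For the 2 ChIP and 2 input samples, the submitters' processing notes name Bowtie 0.12.7, a read aligner. The authors deposited 3 cluster lists on FlyBase release 5, per the file headers: 1 per ChIP replicate, with the input of the same number as control, per the labels, and 1 combined list. Which caller and threshold were used, and how the lists were combined, is not given in the sources used here. The deposited score has no stated scale and was read as a log2 value. Divided by 1 constant per list, 2 raised to the score was a ratio of whole numbers (denominator up to 500, relative tolerance 1e-11) for 99.8%, 98.9% and 91.2% of the clusters of replicate 1, replicate 2 and the combined list, and for 85.3% of the combined members.

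Covered bases, widths, gaps and overlaps were computed from the lists in Python 3.11.15 with numpy 2.4.6, pandas 2.3.3, scipy 1.17.1 and matplotlib 3.10.9, and tested on simulated data. On 3RHet 1 cluster per list ran past the end of the sequence, by at most 804 bp, and was cut there. Replicates are the unit of comparison (exact sign-flip permutation test), and clusters are not replicates. Genome values cover 13 sequences. 2RHet is not described here. Regions named were the 5 highest-scoring and the 5 longest combined clusters of the fourth chromosome and of the Het sets, and the highest-scoring cluster of each sequence that each replicate covered over at least 50%. The top replicate clusters, the segments and the windows were chosen after the values were seen. Members and lists were chosen with earlier results of these data known. Depth is unknown, since no read counts were analysed. No annotation or sequence of release 5 was used here, so no gene is assigned to a cluster.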

Additional observations from a re-analysis of the deposited data

How the results depend on the processing

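The coverage ratio of the fourth chromosome over the Het scaffolds, 1.49, was 1.38 in the combined list, 1.40 for clusters of at least the median width, 1.45 without YHet and 1.60 with the scaffold sets weighted equally. It reversed to 0.69 when only scores from the median up were kept. At percentiles 25 and 75, cuts chosen after seeing the data, it was 1.17 and, reversed, 0.36. Leaving out 1 replicate gave 1.47 to 1.51. The score difference, -0.07, kept its sign throughout, from -0.05 to -0.20 (scaffold sets weighted equally), and from -0.08 to -0.05 with 1 replicate. The excess of the proximal over the distal 50% of the fourth chromosome, 1.97 points, reversed to -0.53 when the outermost 1/3 portions were compared, and was 5.98 in the combined list. The median width of the fourth chromosome moved to 2028 bp in the combined list, 2537 bp with the cut at the median score and 2389 bp for clusters of at least the median width. That of the Het scaffolds moved to 2362 bp and 2619 bp under the latter 2. Median gaps, in the order combined list, score and width, moved to 1766, 56817 and 16846 bp on the fourth chromosome and 3429, 20916 and 14691 bp on the Het scaffolds, so the order of both turned under the score and width filters. With 1 replicate, widths ran from 1913 to 1941 bp and 1826 to 2096 bp and gaps from 4531 to 9410 bp and 6368 to 10616 bp. The share touched by both replicates moved on the fourth chromosome to 17.2% when 50% had to be covered and to 61.2% for clusters at or above the median score. On the Het scaffolds it moved to 10.4% and 29.7%, and to 28.8% for clusters of at least 1301 bp. The share touched by neither moved to 26.4% (at least 1301 bp) and 20.4% (score) on the fourth chromosome, and to 55.1% (50% covered) and 37.2% (at least 1301 bp) on the Het scaffolds. Filters on score and width remove clusters, which lengthens gaps by construction. Causes of the other changes were not tested. No paired analysis was possible because the groups that share the numbers 1 and 2, ChIP and input, were not compared, as no input values were used here. Contrasts between sequences were taken within each replicate.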

Other observations

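Recurring scores were common in all lists. In the combined list 77 of 157 clusters on the fourth chromosome (49.0%) and 247 of 483 on the Het scaffolds (51.1%) had a score that at least 1 other cluster of the list shared to 9 decimals, against 56.8% of the whole list. Neither replicate touched 42 of these 77 (54.5%) and 175 of these 247 (70.9%), against 63.7% over the list. The score of the highest cluster of the fourth chromosome, 4:1315210-1316252, occurred 7 times in the list.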
